A study of Drosophila melanogaster with 19 samples.

Results

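Back-splice junctions, the joins that circular RNAs leave in sequencing reads, were compared in heads of Drosophila melanogaster flies with a slow RNA polymerase II (slow) and in heads of wild-type flies (WT). The slow flies carry the C4 mutation, the WT flies do not, and both are Canton-S. The comparison uses the mock-treated libraries listed in the 2 replicate tables of head samples, which are 8 of the 19 libraries of the series: 4 from slow heads and 4 from WT heads. Each genotype has libraries with the numbers 18 and 29 in their titles and replicates 1 and 2 of each, so the groups are slow18, slow29, WT18 and WT29 with 2 libraries each. The sources used here do not say what 18 and 29 stand for, nor the age, sex or number of the flies, and the term title number is used for 18 and 29. The other 8 head libraries are of the same RNA samples after RNase R, and the remaining 3 are not used here. Back-splice counts cannot show whether a library carries the C4 mutation, so the genotype of each library is taken from its label. Of 4515 junctions listed in either table, 2339 had at least 1 read in the 8 mock libraries.

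A circular RNA forms when the splicing machinery joins the end of an exon to the start of the same exon or of one upstream. This back-splicing competes with ordinary splicing of the same transcript and happens largely while the polymerase is still transcribing, so the speed of elongation is one of the factors studied for the choice between a circle and a linear message. Circular RNAs are plentiful in fly heads, where many neuronal genes host them and muscleblind (mbl) is a well-known source. RNase R digests linear RNA from its free end and spares closed circles.

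The slow libraries held fewer listed back-splice reads than the WT libraries on average, but the groups overlapped. The totals were 800 and 885 reads in the slow18 libraries and 1059 and 2257 in the slow29 libraries, against 1577 and 876 in the WT18 libraries and 3427 and 2704 in the WT29 libraries. Within title number 18 the ratio of the geometric means of slow over WT was 0.716, and within 29 it was 0.508. The mean difference over both title numbers was -0.73 on the log2 scale, a ratio of 0.603 (exact two-sided permutation test within title numbers, p = 0.111, adjusted p = 0.173 over the 14 library measures computed). In this design of 36 arrangements the smallest possible p is 0.0556, so no library measure can reach 0.05. Neither sequencing depth nor linear splicing is in these tables, so fewer circles and shallower sequencing of a library cannot be told apart here. All further levels are normalised read counts, that is reads per 10000 listed back-splice reads of the library. With so few reads per library, most junctions rested on a single read. In the slow libraries 74.2%, 71.9%, 71.0% and 63.4% of the junctions with reads had 1 read, against 67.7%, 71.0%, 57.1% and 57.5% in the WT libraries.

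The number of junctions with reads followed the totals. It was 423, 449, 472 and 806 in the slow libraries, against 711, 455, 1092 and 924 in the WT libraries (p = 0.0556, adjusted p = 0.0972, exact permutation test). At an equal depth of 800 reads, the expected number of junctions was 405 ± 17.7 in slow libraries and 425 ± 10.4 in WT libraries (SD, n = 4 each; p = 0.0556, exact permutation test). The groups still overlapped, with 386 to 423 junctions in slow libraries and 414 to 438 in WT libraries.

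The make-up of the reads separated the libraries of the genotypes, whereas their number did not. Junctions were classed by whether the distance between their ends equals that between an exon start and the same or a later exon end of the host gene. This was the case for 2922 of the 4515 listed junctions, and for 67 when 1 base was added to each distance. Junctions that match no exon ends took 24.4%, 23.6%, 22.9% and 21.9% of the reads in the slow libraries, against 18.6%, 13.6%, 15.7% and 16.7% in the WT libraries. Every slow library was above every WT library. The means were 23.2% ± 1.06 in slow and 16.2% ± 2.11 in WT (SD, n = 4 each), a difference of 7.05 percentage points, with 7.88 points at title number 18 and 6.22 at 29 (p = 0.0556, the smallest possible; adjusted p = 0.0972, exact permutation test). This measure, and those below on exon-matched junctions outside mbl, were chosen after the data had been seen. Within the 4 slow libraries the share was lower the larger the total, with 24.4%, 23.6%, 22.9% and 21.9% at 800, 885, 1059 and 2257 reads. In the WT libraries it was 13.6%, 18.6%, 16.7% and 15.7% at 876, 1577, 2704 and 3427 reads, so the smallest WT library had the lowest share and the other 3 followed the order seen in slow. The part of library size in the difference was not tested. In the RNase R libraries of the same RNA the share was 5.63% to 6.77% in slow and 4.85% to 7.06% in WT, and the groups overlapped.

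Junctions that match exon ends took a smaller share in slow libraries. Those outside mbl took 64.3%, 59.0%, 58.5% and 59.99% of the reads in the slow libraries, against 70.5%, 76.4%, 71.5% and 67.8% in the WT libraries. The groups did not overlap, with means of 60.4% ± 2.61 in slow and 71.5% ± 3.59 in WT (SD, n = 4 each; p = 0.0556, exact permutation test). This share, the no-match share and the share of mbl are parts of the same total. Where the others are larger this one is smaller, so they are not separate results. The mbl gene took 8.13%, 14.2%, 15.96% and 16.4% of the reads in slow libraries, against 7.99%, 7.42%, 10.7% and 13.7% in WT libraries. Replicate 1 of slow18 lay among the WT libraries, so the mbl groups overlapped.

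The span of a junction, the genomic distance from its first to its last base, was shorter in slow libraries when each read counts once. The read-weighted median span was 827, 677, 819 and 811 bases in the slow libraries, against 962, 943, 1050 and 913 bases in the WT libraries. The groups did not overlap, and the mean difference was -0.31 on the log2 scale (p = 0.0556, exact permutation test). The leading mbl junction spans 654 bases. Junctions matching no exon ends are often shorter still, although the most abundant of them, in Msp-300, spans 7225453 bases. The part of these junctions in the span difference was not tested. Among exon-matched junctions outside mbl the read-weighted median span differed by -0.04 on the log2 scale, and the groups overlapped (p = 0.444, exact permutation test). Reads at junctions spanning over 100 kb were 5.66% ± 1.70 in slow libraries and 3.74% ± 0.787 in WT libraries (SD, n = 4 each; p = 0.167, exact permutation test). The shares on chromosome X and on chromosome 4 and the share without a host gene gave exact permutation p-values of 0.833, 0.222 and 0.333.

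**Figure D1:**
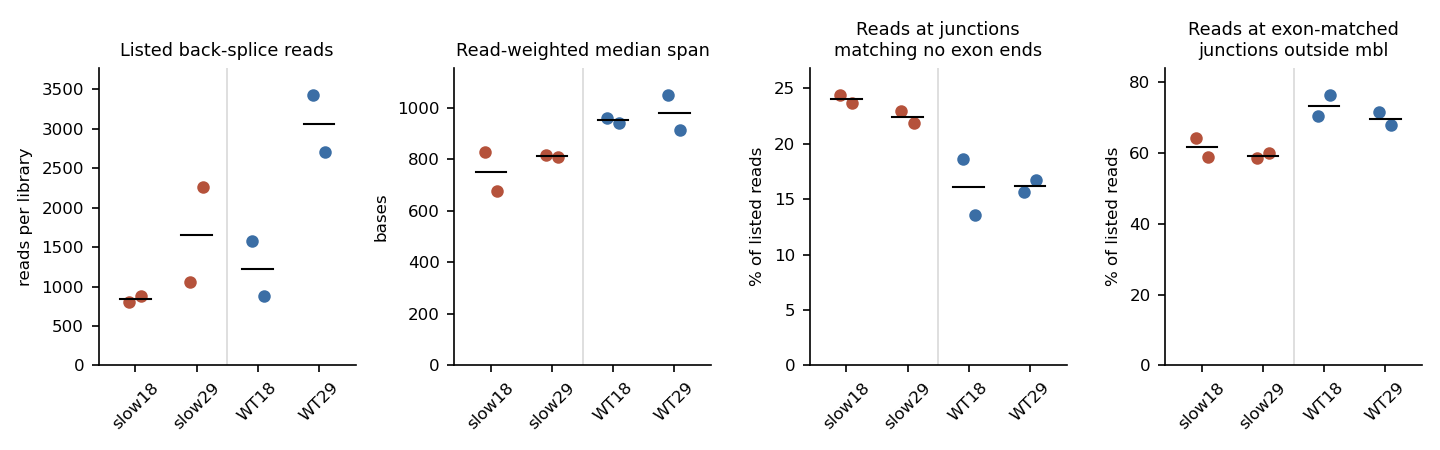
Listed back-splice reads, read-weighted median span in bases, percent of reads at junctions matching no exon ends and percent at exon-matched junctions outside mbl, for each mock library (points) with the mean of each group of 2 (lines). The totals overlap between slow and WT libraries, whereas the other 3 measures do not: the no-match share is 21.9% to 24.4% in slow and 13.6% to 18.6% in WT.

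Single junctions and host genes were then tested with edgeR's quasi-likelihood F-test across the 8 libraries, with title number in the model and Benjamini-Hochberg adjustment at 0.05. Of 230 junctions with enough reads, none was called (0%, adjusted p). Without adjustment 16 had a p under 0.05, 6.96% of those tested, of which 6 were higher (2.61%) and 10 lower (4.35%) in slow. DESeq2 called 0 and had 5 with an unadjusted p under 0.05. Of 263 host-gene sums, 1 was called, 0.38% of those tested, and 26 had an unadjusted p under 0.05 (9.89%), 13 in each direction (4.94%). The median log2 fold change of slow over WT was -0.16 over all junctions and -0.14 over all host genes. The 100 most abundant features set the scaling, and with other scalings the junction median lay between -0.31 and -0.13 and the host-gene median between -0.33 and -0.19. The slow libraries hold fewer reads, so a feature reaches the minimum of 10 reads more easily through the WT libraries. Of the 263 host genes, 101 had 10 reads or more in the WT libraries and fewer in the slow ones, and 4 the reverse. Medians, counts of signs and counts of groups without overlap over the tested features therefore lean towards lower values in slow. They are given as descriptions.

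The called host gene was trp, which encodes the light-activated cation channel of fly photoreceptors. Its summed normalised read count was 200, 102, 246 and 164 in the slow libraries, against 88.8, 57.1, 70.03 and 92.5 in the WT libraries. All 4 slow libraries were above all 4 WT libraries, although replicate 2 of slow18 was close to the highest WT library. The means were 178 ± 60.7 in slow and 77.1 ± 16.6 in WT (SD, n = 4 each), and trp rose by 1.23 ± 0.29 on the log2 scale (SE; edgeR quasi-likelihood test, adjusted p = 0.0186). These sums rest on 16, 9, 26 and 37 reads in the slow libraries and on 14, 5, 24 and 25 reads in the WT libraries. The log2 fold change was 1.02 at title number 18 and 1.35 at 29. The call depended on the settings: the adjusted p was 0.0543 with RLE scaling, 0.117 with TMM over all tested genes and 0.994 with DESeq2, at log2 fold changes of 1.04 to 1.12. It was also lost without replicate 1 of slow18 (adjusted p = 0.199), replicate 1 of slow29 (0.298), replicate 2 of WT18 (0.102) or replicate 1 of WT29 (0.0919), each with edgeR.

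All reads of trp lay at junctions that match no exon ends. In the mock libraries 8 such junctions had reads, with spans of 105 to 168 bases. The leading one, chr3R:25740455-25740598 (dm3, listed on the plus strand), had 57 reads in slow and 52 in WT. Together with 2 others it shares its start, and the ends of those 2 lie 24 bases before and 24 bases after its own. These 3 junctions held 80 of the 88 slow reads and 65 of the 68 WT reads of trp. The leading junction alone had normalised read counts of 112.5, 45.2, 179 and 111 in slow libraries, against 82.4, 34.2, 43.8 and 77.7 in WT libraries, which overlap (log2 fold change 0.88 ± 0.35, edgeR adjusted p = 0.315). After RNase R, the trp sum averaged 5.26 ± 4.38 in slow and 2.66 ± 2.36 in WT (SD, n = 4 each), which is 0.0311 of its mock level over all 8 RNA samples.

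Both trp and ninaE, genes of the eye, had reads in all 8 libraries labelled as heads. The photoreceptor list had reads for 13 genes in mock libraries, of which 4 were tested: trp was called, and none of the other 3 had an unadjusted p under 0.05. Rhodopsin 1 (ninaE), the main visual pigment of the fly eye, averaged 102 ± 23.5 in slow and 95.8 ± 15.4 in WT (SD, n = 4 each; log2 fold change 0.31, adjusted p = 0.787). Arr2, an arrestin that ends the light response, had a log2 fold change of 0.63 and eys, which shapes the space between photoreceptor membranes, one of 0.21. No mock reads of ninaE or Arr2 lay at junctions matching exon ends, whereas all those of eys did. After RNase R the ninaE sum was 0.0322 of its mock level. Summed without trp, the photoreceptor list stood at 138 to 222 in slow libraries and 148 to 184 in WT libraries, which overlap. Fewer cells of a type and less RNA per cell cannot be told apart in such bulk samples. The part of eye content in the trp difference was not tested beyond these values.

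Of 6 muscle genes tested, none was called, and 2 had an unadjusted p under 0.05, bt and Msp-300, both higher in slow. Over all 263 host genes, 13 were higher at that level (4.94%). With all junctions, 4 of the 6 muscle genes had a positive and 2 a negative log2 fold change, and the median was 0.57, beside -0.14 over all host genes. Without junctions over 100 kb, 3 were positive and 3 negative and the median was 0.06, beside -0.15 over all host genes, so the list median depended on junctions of that length. Projectin (bt), a giant protein of the muscle sarcomere related to titin, had 300, 249, 75.5 and 191 in slow libraries, against 146, 114, 78.8 and 92.5 in WT libraries. The 2 slow18 libraries and replicate 2 of slow29 were above all WT libraries, and replicate 1 of slow29 was the lowest of the 8 (log2 fold change 0.95 ± 0.28, edgeR adjusted p = 0.141). With only junctions matching exon ends, which hold 97.8% of its mock reads, bt was called (adjusted p = 0.0069), a setting chosen after seeing the data. Its leading junction, chr4:758362-758535 (dm3, single exon), was called together with the leading trp junction when only the 30 junctions with at least 50 reads were tested.

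Msp-300, a nesprin that links muscle nuclei to the cytoskeleton, had 525, 237, 623 and 359 in slow libraries, against 361, 114, 371 and 251 in WT libraries. The groups overlapped, while each slow library was above the WT library of the same numbers (log2 fold change 0.64 ± 0.29, adjusted p = 0.431). Equal numbers were not taken to pair the samples, so this and later comparisons by number are descriptions only. Nearly all of these reads belong to 1 junction, chr2L:816665-8042117 (dm3), which spans 7225453 bases, far more than a fly gene, and matches no exon ends. Without junctions over 100 kb the Msp-300 sum turned to -0.43. Myosin heavy chain (Mhc) had 14 reads in slow and 10 in WT, none at junctions matching exon ends (log2 fold change 1.25, adjusted p = 0.476). The muscle list as a whole stood at 565 to 938 in slow libraries and 251 to 558 in WT libraries, with no overlap. Without Msp-300 it stood at 412.5, 328, 104 and 266 in slow libraries, against 197, 137, 134 and 126 in WT libraries. Replicate 1 of slow29 was then below every WT library, and the groups overlapped. The part of muscle content in the bt value was not tested.

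**Figure D2:**
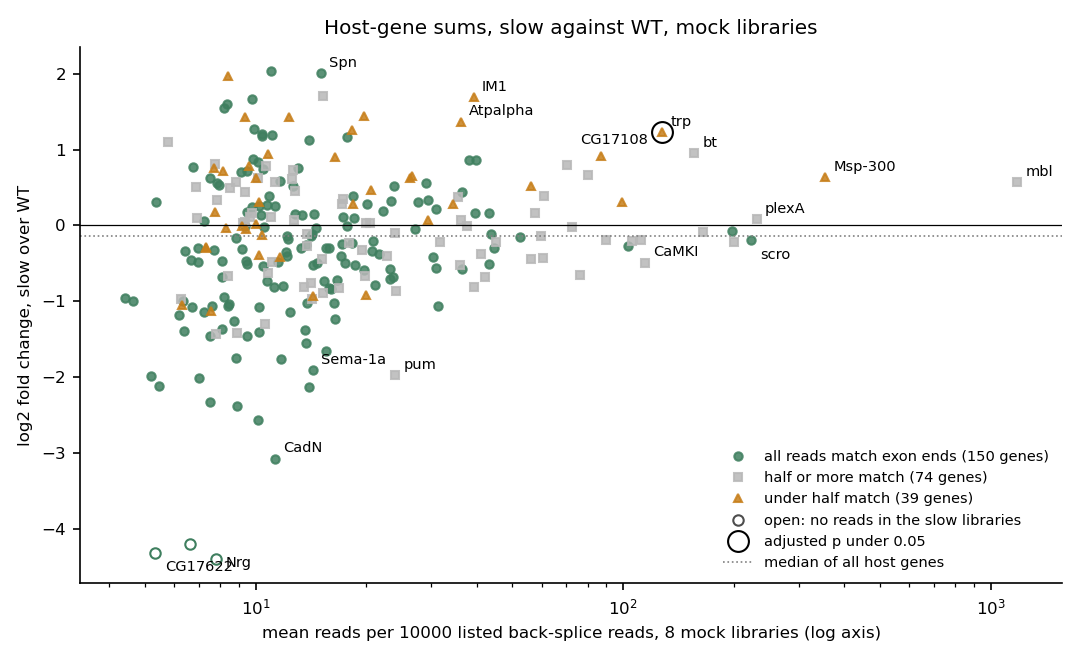
Log2 fold change of slow over WT for the 263 tested host-gene sums against their mean normalised read count in the 8 mock libraries, by the share of their reads at junctions matching exon ends. Host genes with under 50% of their reads matching (triangles) lie mostly above 0, those with all reads matching (circles) mostly below, and trp (ringed) is the 1 with an adjusted p under 0.05.

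The same division by exon ends ran through the tested features. Their values come from the same reads as the library shares above, so they are not separate results. Of 39 host genes with under 50% of their mock reads at matching junctions, 27 had a positive and 12 a negative log2 fold change, with a median of 0.47, and 7 were higher and 0 lower at an unadjusted p under 0.05. Of 150 host genes with all reads at matching junctions, 51 had a positive and 99 a negative value, with a median of -0.31, and 2 were higher and 11 lower. Over all 263 host genes, 13 were higher and 13 lower at that level (4.94% each). Among junctions, 37 without a match had a median of 0.32, and 143 from the start of one exon to the end of a later one had a median of -0.37. Single-exon junctions stood at -0.42 over 46. The span carried no such ordering: across the 189 tested junctions that match exon ends, the correlation of the log2 fold change with log2 span was -0.0004 (Pearson) and -0.004 (Spearman), a description across junctions of the same 8 libraries. The minimum of 10 reads bore on these classes unequally: 74 of the 150 host genes with all reads matching reached it in the WT libraries alone and 2 in the slow libraries alone, beside 5 and 1 of the 39. The shares of all reads given above use no minimum. After RNase R, the host genes with under 50% matching had a median of 0.150 of their mock level, and those with all reads matching a median of 1.103.

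Further host genes of the no-match kind were higher in slow without being called. CG17108 is a little-studied gene with 22 junctions of 102 to 486 bases, none of which matches exon ends. It had 150, 102, 75.5 and 111 in slow libraries, against 120, 57.1, 37.9 and 44.4 in WT libraries. The groups overlapped through replicate 1 of WT18 (log2 fold change 0.91 ± 0.31, adjusted p = 0.173). The sodium pump subunit Atpalpha had 50, 90.4, 37.8 and 39.9 in slow libraries, against 31.7, 0, 17.5 and 22.2 in WT libraries. Here the groups did not overlap (log2 fold change 1.37 ± 0.51, adjusted p = 0.220). After RNase R the sign was the other way, with 23 reads in slow and 55 in WT (log2 fold change -0.45, edgeR adjusted p = 0.705). IM1, a short secreted immune peptide of a family of similar genes, had reads in every replicate 2 library and in no replicate 1 library. These were 9 and 24 reads in slow and 6 and 10 in WT, at a single junction of 2581 bases, so its value rests on the replicate 2 table alone. After RNase R it was called higher, with 31 reads in slow and 7 in WT (log2 fold change 3.33, edgeR adjusted p = 2.3e-05), again with none in a replicate 1 library, and 25 of the slow reads were in 1 library. Reads of similar family members may be split or shared there.

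Groups of libraries that did not overlap were found for 12 of the 263 host genes, 4.56% of those tested: 4 with slow higher (1.52%) and 8 with slow lower (3.04%). The 4 with slow higher were trp, Atpalpha, Spn and CG13681. Among them, Spn reached the minimum in the slow libraries alone, with 14 reads in slow and 6 in WT. Spinophilin (Spn), a scaffold at synapses that binds protein phosphatase 1, had 25, 22.6, 18.9 and 35.4 in slow libraries, against 0, 0, 14.6 and 3.70 in WT libraries. All its reads match exon ends (log2 fold change 2.01 ± 0.72, adjusted p = 0.173). The value was 3.37 without replicate 1 of WT29, which held most of its WT reads, and between 1.61 and 2.25 without any other single library. In the RNase R libraries Spn averaged 22.3 ± 6.82 in slow and 10.8 ± 2.14 in WT (SD, n = 4 each), and it was called there with a log2 fold change of 1.16 (edgeR adjusted p = 0.0028). In those libraries 44 of 828 tested host genes were called (5.31%), 21 higher (2.54%) and 23 lower (2.78%), and 37 of 1221 junctions (3.03%), 11 higher (0.901%) and 26 lower (2.13%).

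The 8 with slow lower were Nrg, pum, CG33275, Sema-1a, CG40178, Ogt, CaMKI and Pk61C. Of these, Nrg, pum, CG33275 and Sema-1a reached the minimum of 10 reads in the WT libraries alone, so it favours low values here. Ogt and CaMKI reached it in both genotypes. Pumilio (pum), an RNA-binding protein that represses translation, had 12.5, 0, 9.44 and 8.86 in slow libraries, against 38.0, 68.5, 32.1 and 22.2 in WT libraries. These are 4 reads in slow and 29 in WT over 7 junctions (log2 fold change -1.97 ± 0.68, adjusted p = 0.173). After RNase R, pum averaged 15.9 ± 0.786 in slow and 30.6 ± 5.55 in WT (SD, n = 4 each) and was called lower (log2 fold change -0.82, edgeR adjusted p = 0.023). The calcium- and calmodulin-dependent kinase CaMKI had 75, 67.8, 94.4 and 115 in slow libraries, against 127, 171, 134 and 133 in WT libraries (log2 fold change -0.49 ± 0.29, adjusted p = 0.617). It is the most abundant of these host genes. Ogt, the enzyme that attaches N-acetylglucosamine to nuclear and cytoplasmic proteins, averaged 56.1 in slow and 96.2 in WT (log2 fold change -0.65, adjusted p = 0.476).

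Several host genes had no read in the 4 slow libraries. As a bound, the summed WT share of each was divided by the share of a floor of 3 reads over the slow libraries. This takes the WT count as exact. Neuroglian (Nrg), a neuronal adhesion molecule, had 1, 2, 5 and 5 reads in the WT libraries, a bound of 2.52-fold. CG33275 had 3, 1, 4 and 3 reads in WT, a bound of 2.14-fold. CG17622, known as wide awake, is a sleep gene of clock neurons. It had no read in either WT18 library and 7 and 6 in the WT29 libraries, a bound of 2.52-fold. At title number 18 neither genotype had a read of CG17622, so its bound, pooled over both numbers, says nothing about 18. A junction of CG9339, or skywalker, a regulator of synaptic vesicle traffic, had 3, 1, 6 and 4 reads in WT, a bound of 2.72-fold. All of them reached the minimum of 10 reads through the WT libraries alone. None of these passed the test in mock libraries (edgeR adjusted p = 0.173 for the 3 host genes and 0.114 for the junction). In the RNase R libraries CG17622 had 6 reads in slow and 42 in WT (edgeR adjusted p = 0.0188), and the CG9339 junction had 30 and 121 (adjusted p = 0.0163). Both were called lower in slow there. Nrg had 38 reads in slow and 37 in WT after RNase R, and was not called (adjusted p = 0.364).

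The axon guidance and adhesion list held Nrg and 3 further members with an unadjusted p under 0.05. Of 30 members with mock reads, 8 were tested. None of the 8 was called, and 0 were higher and 4 lower without adjustment. Over all 263 host genes, 13 were higher and 13 lower at that level (4.94% each). The median log2 fold change was -1.02, or -0.91 with Nrg at its bound, beside -0.14 over all host genes. Of these 8, 6 reached the minimum of 10 reads in the WT libraries alone and 0 in the slow libraries alone, so the minimum favours low values here. Summed over all 30 with no minimum, the list stood at 300 to 407 in slow libraries and 392 to 461 in WT libraries, which overlap. N-cadherin (CadN) had 1 read in slow and 21 in WT, a ratio of summed shares of 0.0817 (95% exact binomial interval 0.00198 to 0.508). Its reads in WT were 1, 1, 13 and 6, so the WT29 libraries held most of them. Semaphorin 1a (Sema-1a), a guidance cue, had 3 reads in slow and 22 in WT, a ratio of 0.234 (interval 0.0449 to 0.779). Kuzbanian (kuz), a metalloprotease that cleaves Notch, had 4 reads in slow and 23 in WT (log2 fold change -1.55, adjusted p = 0.453). In the RNase R libraries the log2 fold changes of CadN and Sema-1a were 0.34 and -0.17, with adjusted p-values of 0.722 and 0.894. The most abundant member, plexA, a receptor for semaphorins, averaged 230.5 ± 39.1 in slow and 231 ± 17.6 in WT (SD, n = 4 each; log2 fold change 0.08, adjusted p = 0.919).

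In the remaining lists no host gene was called. Over all 263 host genes, 13 were higher and 13 lower at an unadjusted p under 0.05 (4.94% each). The median log2 fold change over all of them was -0.14. Of 31 synapse and ion channel genes, 0 were called, 1 was higher (Spn) and 2 lower (CG17622 and CG9339) without adjustment. Their median was 0.07. The minimum of 10 reads was reached by 9 of the 31 in the WT libraries alone, CG17622 and CG9339 among them. In the slow libraries alone it was reached by 1, Spn. Of 14 transcription and chromatin genes, 0 were called or had an unadjusted p under 0.05, with 2 positive and 12 negative values and a median of -0.25. Here 8 of the 14 reached that minimum in the WT libraries alone and 0 in the slow libraries alone, so it favours low values. Of 12 genes for RNA binding and splicing, 0 were called, and pum was lower and the translational regulator bruno 1 (aret) higher without adjustment. The minimum was reached by 5 of the 12 in the WT libraries alone and by 1 in the slow libraries alone. Of 7 kinases and signalling genes, 0 were called and Ogt was lower without adjustment. Of 5 fat body and cuticle genes, 0 were called or had an unadjusted p under 0.05, with a median of 0.62. Those with positive values, Rfabg, Yp2 and Yp3, had 0%, 0% and 10% of their mock reads at junctions matching exon ends. LpR2 and CG42345, with 100%, had negative values. The sum of the fat body and cuticle list was 151 to 375 in slow libraries and 155 to 399.5 in WT libraries, which overlap. The glia, blood cell and clock lists had no member with enough reads to be tested.

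**Figure D3:**
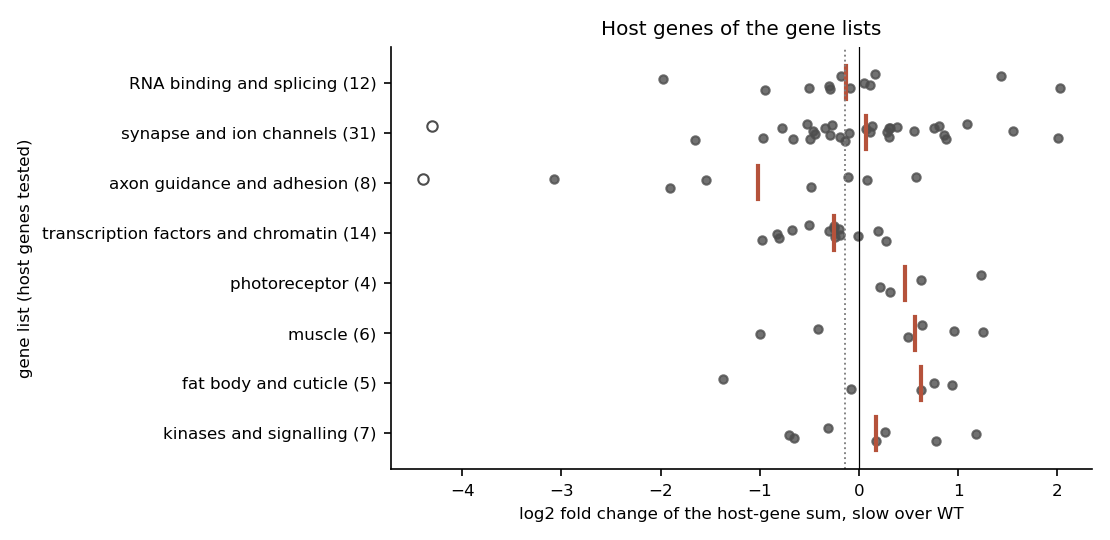
Log2 fold change of slow over WT for each tested host gene of the gene lists with 4 or more tested members (points, open where the slow libraries had no read), with the list median (bar) and the median of all 263 host genes (dotted line, -0.14). The axon guidance and adhesion list has a median of -1.02, with 6 of its 8 members reaching the read minimum in WT alone, and the muscle list one of 0.57, which is 0.06 without junctions over 100 kb.

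None of the 20 most abundant junctions was called. Their log2 fold changes lay between -0.69 and 1.07 with standard errors of 0.26 to 0.50, and 10 of them were 0.5 or more in size, 6 higher and 4 lower in slow. At this depth most differences of that size could not be resolved. The leading one by far was the single-exon junction of mbl, chr2R:13162915-13163568 (dm3). It had normalised read counts of 775, 1379, 1539 and 1595 in slow libraries, against 767, 719, 1027 and 1283 in WT libraries. Each slow library was above the WT library of the same numbers, but replicate 1 of slow18 was below both WT29 libraries. The log2 fold change was 0.50 ± 0.26 (edgeR adjusted p = 0.625), and for the sum of all 16 mbl junctions it was 0.57 ± 0.31 (adjusted p = 0.561). In the RNase R libraries the mbl sum was called higher in slow, with 1705 ± 466 in slow and 1169 ± 201 in WT (SD, n = 4 each; log2 fold change 0.65, edgeR adjusted p = 2.6e-04). Muscleblind is a splicing regulator and its gene is known for an abundant circle made of 1 exon.

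Below mbl and Msp-300 came host genes whose levels lay close together. The homeobox gene scarecrow (scro) averaged 209 ± 36.7 in slow and 238 ± 42.4 in WT (SD, n = 4 each; log2 fold change -0.20, adjusted p = 0.883). The magnesium transporter gene CG40084 averaged 174 ± 89.4 in slow and 227 ± 47.0 in WT (log2 fold change -0.22, adjusted p = 0.870). The laccase gene CG42345, which hardens the cuticle, averaged 197 ± 117 in slow and 199 ± 93.5 in WT (log2 fold change -0.08, adjusted p = 0.926). The RNA helicase Dbp80 averaged 156 ± 35.8 in slow and 173 ± 20.4 in WT (log2 fold change -0.09, adjusted p = 0.919). With standard errors of 0.27 to 0.29, log2 differences of the size of these could not be resolved at this depth. The Wnt pathway factor pangolin (pan) averaged 91.9 ± 19.9 in slow and 119 ± 16.2 in WT, and each slow library was below the WT library of the same numbers (log2 fold change -0.20, adjusted p = 0.884).

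**Figure D4:**
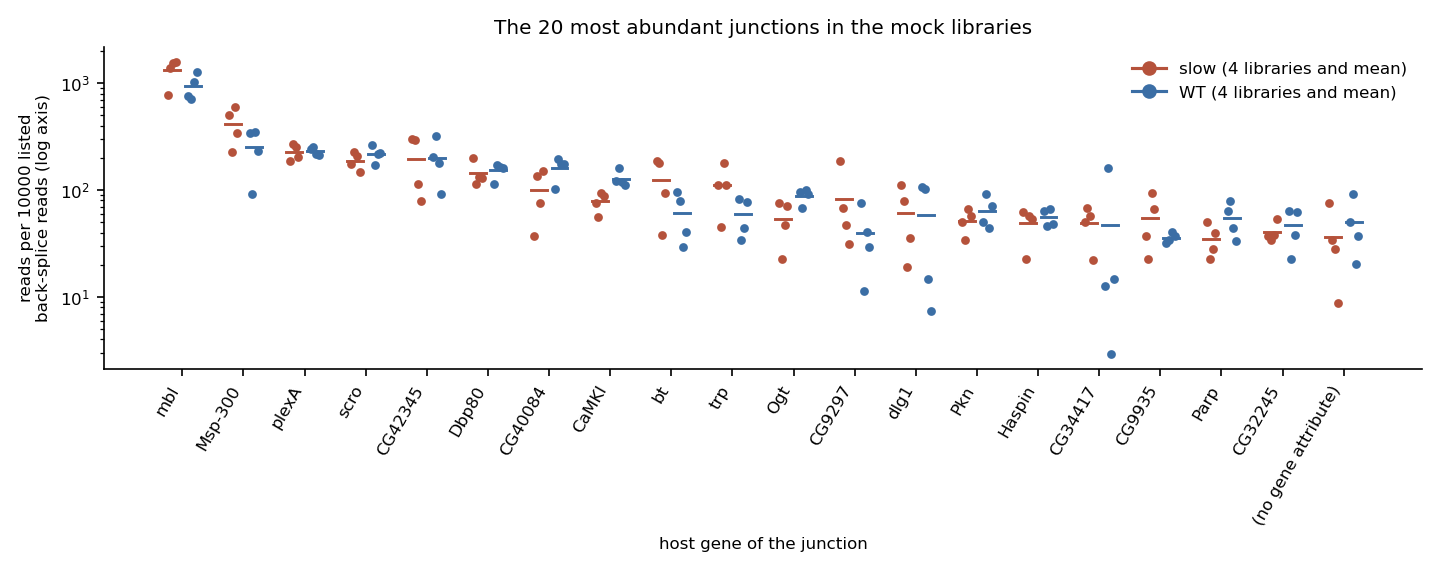
Normalised read counts (log axis) of the 20 most abundant junctions in each slow and WT mock library (points) with the mean of each group of 4 (lines), ordered by mean level. The mbl junction reaches 1595 in slow libraries and 1283 in WT libraries, the CaMKI points do not overlap, and 1 WT library stands apart for CG34417.

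Among the 20 most abundant junctions, that of CaMKI, chr4:470550-471135 (dm3), was the 1 whose groups did not overlap, with 56.5 to 94.4 in slow libraries and 111 to 160 in WT libraries. Over all 230 tested junctions 9 did not overlap, 3.91% of those tested, of which 2 had slow higher (0.87%) and 7 slow lower (3.04%). A junction of toy, a Pax6 gene of eye development, was among them with 2 reads in slow and 19 in WT. The minimum of 10 reads was reached by 87 of the 230 in the WT libraries alone and by 2 in the slow libraries alone. The CG40084 junction chr2RHet:3154309-3155516 (dm3) had 37.5, 136, 75.5 and 151 in slow libraries, against 101, 194, 175 and 174 in WT libraries. Each slow library was below the WT library of the same numbers, but the groups overlapped (log2 fold change -0.56 ± 0.32, adjusted p = 0.625). This junction took 57.9% ± 9.97 of its gene's reads in slow libraries and 70.5% ± 7.59 in WT libraries (SD, n = 4 each; exact permutation p = 0.111, adjusted p = 0.556 over 10 host genes). The leading junction of mbl took 96.4% ± 0.734 in slow and 95.7% ± 1.33 in WT. None of the 10 host genes examined had an adjusted p under 0.05 for the share of its leading junction.

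The difference between slow and WT was also set side by side at the 2 title numbers. A test of whether it differed between 18 and 29 called 0 of 230 junctions (edgeR; 6 with an unadjusted p under 0.05, 2.61%; DESeq2 0) and 0 of 263 host genes (10 unadjusted, 3.8%; DESeq2 0). The smallest p among host genes was for CG16885, with 3, 1, 0 and 0 reads in slow libraries, against 0, 0, 5 and 5 in WT libraries (edgeR adjusted p = 0.320). Taken separately, each title number gave 0 called junctions (14 unadjusted, 6.09%, at each; edgeR). Title number 18 gave 0 called host genes (11 unadjusted, 4.18%) and 29 gave 1, trp (18 unadjusted, 6.84%; edgeR). For bt the log2 fold change was 1.11 at 18 and 0.82 at 29, and for mbl it was 0.67 and 0.48. For CaMKI it was -0.93 at 18 and -0.26 at 29. CG42345 had 0.33 at 18 and -0.53 at 29, with an unadjusted p of 0.118 for the difference.

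**Figure D5:**
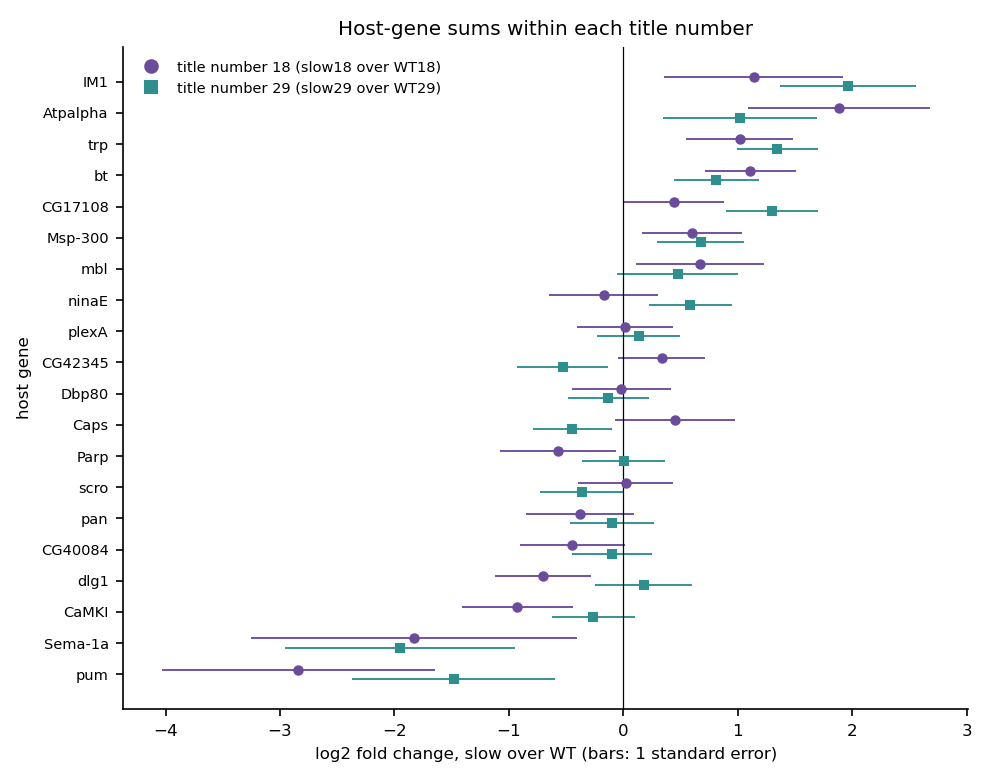
Log2 fold change of slow over WT for named host genes with reads in all 4 groups, at title number 18 (circles) and 29 (squares), with bars of 1 standard error from edgeR. Both values lie above 0 for trp, bt, Atpalpha, mbl and Msp-300 (negative without its junction over 100 kb) and below 0 for pum, Sema-1a and CaMKI, and no difference between the title numbers passed the test.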

How the data were processed

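RNA from fly heads was depleted of ribosomal RNA, mock-treated or treated with RNase R, and made into libraries with the TruSeq RNA kit, per the labels' protocol. The incubation was 15 min at 37 degrees C for mock and RNase R samples alike. The submitters' processing notes name CASAVA, Bowtie and the build dm3, without versions, junction caller or thresholds. The deposited values are raw read counts per back-splice junction, held for all libraries of a replicate in 1 cell of a table, and a row's counts sum to the count total that the authors deposited beside them. The smallest listed total is 2 reads, and an unlisted junction was taken as 0.

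The 2 tables list 3342 and 3396 junctions, and 2223 are in both. Junctions in both tables, and sums over all junctions of a host gene, entered the tests if they had at least 10 reads over the 8 libraries and reads in at least 2. Tests used edgeR 4.0.16 (R 4.3.3) with library totals scaled by TMM over the 100 most abundant features, with DESeq2 1.42.0 as an alternative. The SE printed beside a log2 fold change is its size divided by the square root of F, and so restates the test. Exon ends came from the Ensembl annotation of a later build, through gene symbols (1654 of 1689 host genes matched) and lengths alone. No coordinates were carried between builds. The method was also run on simulated counts with the same spread setting for every feature and no effect of title number or replicate. The outcome of that run is not reported here, so nothing is concluded from it. Named are the 20 most abundant junctions and 15 host genes, the 12 of each with the smallest p, those called, the 4 of each with the smallest interaction p and list members with an unadjusted p under 0.05. Members and lists were chosen with earlier results of these data known.

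The replicates of slow18, slow29 and WT18 differed by more than sampling noise (permutation chi-square test over junctions with at least 10 reads, p = 2.1e-04, 6.0e-04 and 9.0e-05). Those of WT29 did not at that minimum (permutation p = 0.115) but did at 20 reads (permutation p = 0.0329), and they were kept apart. These tests included junctions listed for 1 replicate only, taken as 0 in the other, such as that of IM1 with 0 and 24 reads in slow29. The part of such junctions in the differences was not tested. The labels do not say whether replicates came from separate flies, and the p-values reflect only how far these samples vary, possibly for technical reasons. Intervals and floors cover counting error only, since amplified reads carry no molecular identifiers.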

Additional observations from a re-analysis of the deposited data

Results flagged for a closer look

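In 6 of 98 groups of 4 libraries examined, 1 library stood far from the other 3; chance gives about 1 in 20. For the Dbp80 junction chr3LHet:2454979-2455331 (dm3), replicate 1 of WT18 had 114 reads per 10000, below 163, 163 and 171 in the other WT libraries. For the CG34417 junction chrX:4256493-15005055 (dm3), which matches no exon ends, replicate 2 of WT18 had 160, above 2.92, 12.7 and 14.8. For the CaMKI sum, replicate 2 of WT18 had 171, above 127, 133 and 134. For the ninaE sum, replicate 2 of slow29 had 137, above 87.5, 90.4 and 94.4 in the other slow libraries. Replicate 2 of slow29 also had the most junctions with reads among slow libraries, 806, and the largest total. The log2 read-weighted median span of replicate 2 of slow18 was 9.40, below 9.66, 9.68 and 9.69.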

How the results depend on the processing

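The count of called host genes, 1 in the report, was 0 with TMM over all tested features, TMM with singleton pairing, RLE, DESeq2, no filter, or the WT29 libraries as 1 sample, and log2 fold changes of trp stayed between 1.04 and 1.43 in all settings in which it was tested. It was 3 (bt, CG17108 and trp) with at least 50 reads and 2 (bt and trp) without junctions over 100 kb, and 0 to 2 leaving out 1 library. The count of called junctions, 0 in the report, was 2 with at least 50 reads and 0 leaving out 1 library. With DESeq2 the RNase R libraries gave 9 junctions and 17 host genes, and leaving out 1 library gave 18 to 40 and 18 to 53. The sign of the plexA junction (-0.00) turned to 0.033 with RLE, 0.025 with TMM over features with reads in every library, 0.036 with DESeq2, 0.067 with at least 20 and 0.15 with at least 50 reads, and 0.11 with exon-matched junctions only. That of the plexA sum (0.08) turned to -0.080 with TMM over all features, -0.063 with singleton pairing, -0.051 with RLE and -0.048 with DESeq2. With at least 50 reads the junctions of CG42345 and Dbp80 turned to 0.0059 and 0.026, and with exon-matched junctions only the sums of CG42345, Dbp80 and pan turned to 0.048, 0.062 and 0.044. The Msp-300 sum turned to -0.43 without junctions over 100 kb. The cause was not tested.

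Leaving out 1 library at a time, log2 fold changes that changed sign ranged from -0.11 to 0.12 (plexA junction), -0.31 to 0.11 (CG42345 junction), -0.45 to 0.0044 (Pkn junction), -0.47 to 0.078 (CG32245 junction), -0.025 to 0.22 (plexA sum), -0.38 to 0.021 (scro sum), -0.47 to 0.0097 (CG40084 sum), -0.24 to 0.24 (CG42345 sum), -0.17 to 0.014 (Dbp80 sum) and -0.39 to 0.14 (Caps sum). The difference in the percent of reads on X ranged from -1.13 to 0.437, and those in leading-junction shares from -5.93 to 2.80 (scro), -5.90 to 5.63 (CaMKI) and -12.2 to 12.8 (Caps) percentage points. The values of Spn, IM1 and CadN ranged from 1.61 to 3.37, 0.42 to 2.39 and -5.26 to -1.95. The difference in the no-match share ranged from 5.79 to 8.32 points and was 5.68 without junctions over 100 kb.

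Deviations of same-numbered replicates correlated above 0.1 in the 3 pairs among WT29, slow18 and slow29 (r from 0.13 to 0.22 over junctions and 0.15 to 0.23 over host genes) but not in the 3 pairs with WT18 (-0.05 to 0.04 and -0.01 to 0.10), so the numbers were not taken to pair the samples, although each replicate number has its own table. With the replicate block the count of called junctions was 0 and that of host genes 1. At 800 to 3427 reads per library the depth limits single junctions most.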
